A study of Mus musculus with 22 samples.

Results

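The genes described here, 6 of the 55487 in the deposited table, carry glucose into the muscle fibre and through the first steps of its use. All 6 were among the 15082 that passed the filter on low counts. They are the glucose transporter genes Slc2a1 and Slc2a4, the hexokinase genes Hk1 and Hk2, and the genes Pfkfb1 and Pfkfb3 of the bifunctional enzymes that set fructose 2,6-bisphosphate. They were found by matching these symbols to the gene identifiers of the table, and each symbol matched 1 row. The set was drawn up with results of these libraries in view, so the adjusted p-values below describe the genes and are no independent evidence.

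The tissue was soleus, a small calf muscle rich in slow fibres, taken from male mice. Mice labelled WT and mice labelled KO for the thyroid hormone receptor TRa1 received vehicle or triiodothyronine (T3), the active form of thyroid hormone. The groups were WT vehicle (5 libraries), WT T3 (6), KO vehicle (4) and KO T3 (7), and the labels used here give no age, dose or length of treatment. They also do not say whether the receptor was deleted in muscle alone or in the whole animal, nor whether each library came from its own animal. P-values therefore measure the spread between these libraries, which may be technical in part.

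Glucose enters a muscle fibre through transporters of the SLC2 family and is trapped as glucose 6-phosphate by hexokinase. GLUT4, the product of Slc2a4, is held in vesicles and moves to the surface with insulin or contraction, while GLUT1, the product of Slc2a1, serves basal uptake. Hexokinase II, from Hk2, is the main form of skeletal muscle, and hexokinase I, from Hk1, is the widespread form. The PFKFB enzymes make and break down fructose 2,6-bisphosphate, the activator of phosphofructokinase, so they tune the step at which sugar is committed to glycolysis. Pfkfb1 is known for separate promoters used in liver and in muscle, and Pfkfb3 for induction by hypoxia and proliferation.

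Total counts ran from 14542548 to 75766782 per library. Thra, the gene of the deleted receptor, stood at 70.8 to 90.6 counts scaled by library size (CPM) in the WT vehicle libraries and at 44.2 to 53.6 CPM in the KO vehicle libraries. With T3 it ran from 19.3 to 58.9 CPM in WT and from 21.2 to 39.8 CPM in KO, so the genotypes overlapped there. T3 lowered Thra in WT (-0.86 ± 0.20, adjusted p = 0.0160, from the quasi-likelihood test of edgeR). That call was lost in a fit on only the groups compared (-0.87, adjusted p = 0.0516). The genotype difference of Thra under vehicle was not called (log2 fold change -0.71 ± 0.22, SE, adjusted p = 0.0979), nor was that under T3 (-0.39 ± 0.18, adjusted p = 0.271). Without the 5 T3 libraries named below both genotype differences were called (-0.68 ± 0.10, adjusted p = 0.00032, and -0.49 ± 0.10, adjusted p = 0.0106), as they were without WT T3 replicate 1 alone. The difference under vehicle was also called in the fit on only the groups compared (-0.69, adjusted p = 0.00238) and with limma voom and quality weights (-0.71, adjusted p = 0.00508). Counts per gene cannot separate the receptor TRa1 from the other products of Thra, so this is a limited check of the labels. The 5 general muscle fibre markers (Acta1, Ckm, Des, Mb and Actn2) summed to 26920 to 59875 CPM over all libraries. On the first 2 principal components 5 T3 libraries lay apart, namely replicates 1, 3 and 5 of WT T3 and replicates 2 and 3 of KO T3, and results that use T3 libraries are given with and without them.

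Per kilobase of gene model (RPKM), the 6 genes kept 1 order of mean level in all 4 groups. Slc2a4 was highest, at 136 ± 21.1 RPKM (SD, n = 5) in WT vehicle muscle, and 98.2% of the tested genes lay below it. Hk2 followed at 80.2 ± 6.15 RPKM and Pfkfb1 at 14.6 ± 0.85 RPKM. Slc2a1 (3.55 ± 0.56 RPKM), Pfkfb3 (2.97 ± 3.02 RPKM) and Hk1 (1.66 ± 0.23 RPKM) made up the low end. The ranges of Pfkfb3 and Hk1 overlapped in every group, and those of Slc2a1 and Pfkfb3 overlapped in WT vehicle and in KO T3. No other neighbours in the order overlapped. The muscle forms stood far above the widespread forms in level, and raw counts per library ran from 6951 to 40583 for Slc2a4 but only from 187 to 1197 for Slc2a1.

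Of the 6 genes, none was called in either T3 comparison, 2 were called lower in KO under vehicle and 1 was called lower in KO under T3. A call means an adjusted p below 0.05 over the 15082 genes. Over all tested genes T3 gave calls for 3.31% in WT and 2.72% in KO. The genotype gave calls for 3.08% under vehicle (1.52% lower in KO) and 5.57% under T3 (2.34% lower in KO). For the difference of the T3 responses, KO minus WT, none of the 6 and 0.00663% of all genes were called. Nothing about the set is read from these counts. The comparisons share groups: T3 in WT and KO under vehicle both use the WT vehicle libraries, and T3 in KO and KO under vehicle both use the KO vehicle libraries.

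**Figure D1:**
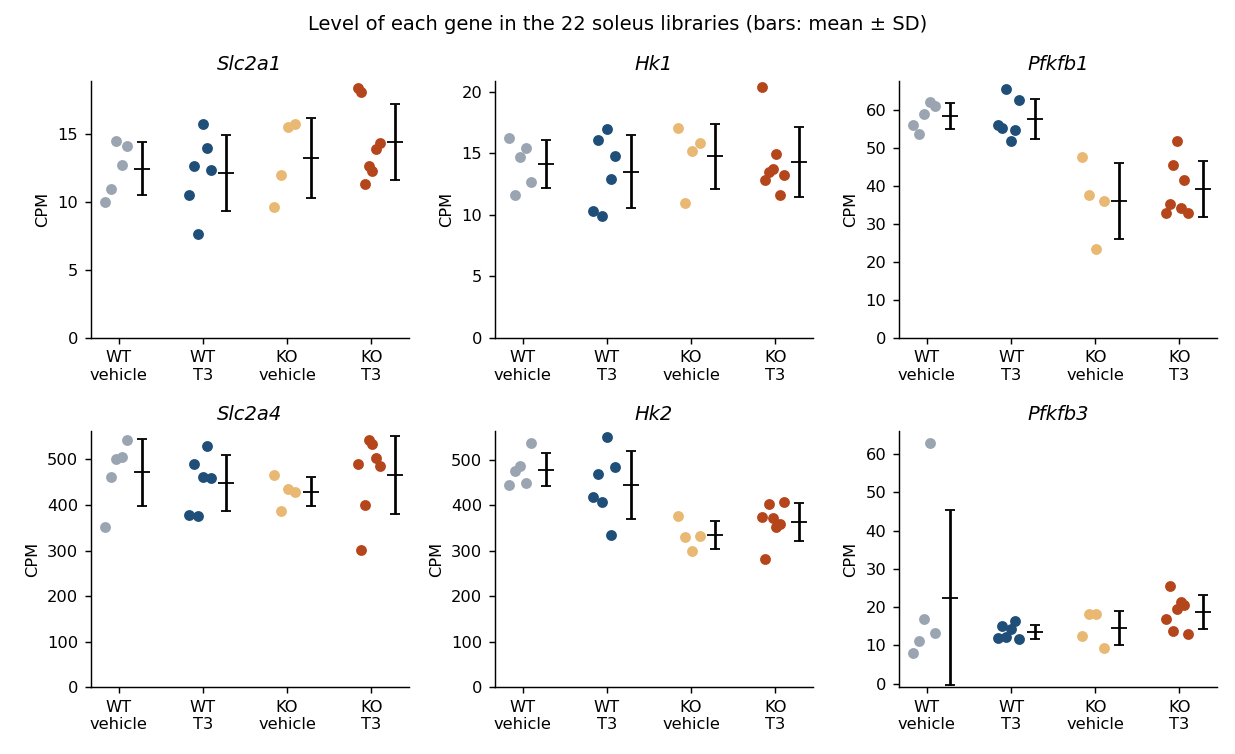
Level of each of the 6 genes (vertical axis, CPM) in every library, grouped by genotype and treatment on the horizontal axis. Points are libraries and the bars beside them show the mean ± SD. Hk2 and Pfkfb1 lie lower in the KO groups than in WT vehicle, and 1 WT vehicle library stands alone for Pfkfb3 at 63.0 CPM.

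**Figure D2:**
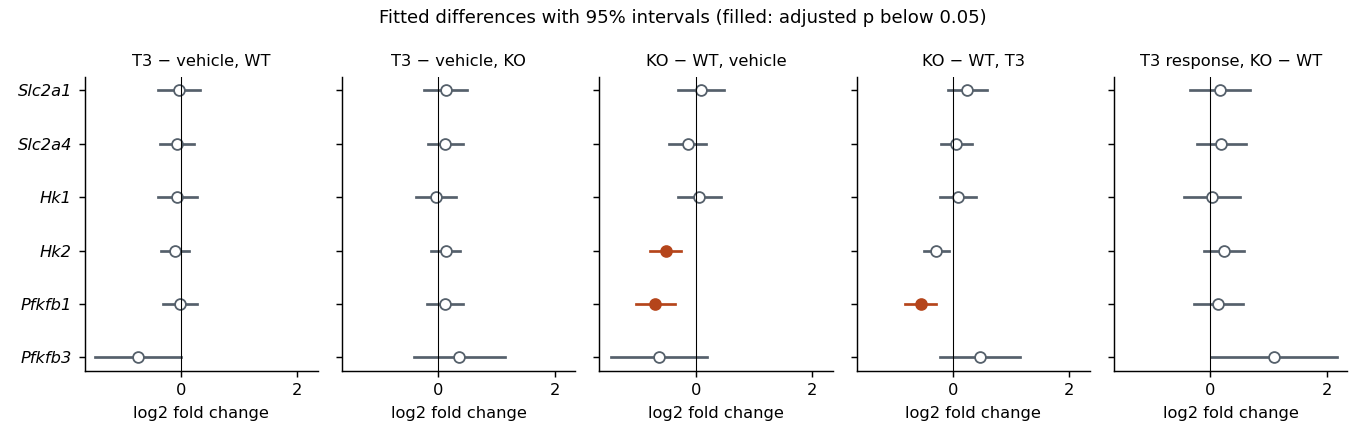
Fitted log2 fold change of each gene (horizontal axis) with its 95% interval in the 4 comparisons and in the difference of the T3 responses. Filled points passed an adjusted p of 0.05; these are Hk2 and Pfkfb1 in KO under vehicle and Pfkfb1 in KO under T3.

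Slc2a4, the gene of the insulin-responsive transporter GLUT4, lies on mm10 chromosome 11 at 69942539 to 69948147, on the minus strand. It read 352, 460, 502, 504 and 543 CPM in the WT vehicle libraries. In KO vehicle it read 465, 387, 435 and 428 CPM. All KO vehicle values lay inside the range of the WT vehicle values. With T3, Slc2a4 ranged from 376 to 528 CPM in WT, with a median of 460, and from 302 to 542 CPM in KO, with a median of 489. The 4 groups overlapped throughout. T3 changed the fitted level by -4.97% in WT (95% interval -22.2 to 16.1%, adjusted p = 0.837) and by 8.4% in KO (-12.0 to 33.4%, adjusted p = 0.835). KO differed from WT by -9.15% under vehicle (-27.2 to 13.4%) and by 3.6% under T3 (-13.8 to 24.5%). Without the 5 T3 libraries that lay apart, the log2 change with T3 was -0.0015 ± 0.11 (SE) in WT and 0.22 ± 0.10 in KO, neither of them called.

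Slc2a1, the gene of the basal transporter GLUT1, lies on chromosome 4 at 119108711 to 119137983, on the plus strand. Its WT vehicle libraries read 9.99, 10.9, 14.5, 12.7 and 14.1 CPM and its KO vehicle libraries 9.63, 12.0, 15.5 and 15.8 CPM. With T3 it ranged from 7.67 to 15.7 CPM in WT, with a median of 12.5, and from 11.4 to 18.4 CPM in KO, with a median of 13.9. The highest values were those of KO T3 replicates 1 and 2, and all groups overlapped. Its largest fitted difference was between genotypes under T3, 18.6% higher in KO with a 95% interval from -5.68 to 49.2% (adjusted p = 0.473). With T3 the change was -2.5% in WT (-24.0 to 25.2%) and 9.1% in KO (-15.8 to 41.2%). Without the 5 libraries that lay apart, the genotype difference under T3 was 0.06 ± 0.17 on the log2 scale and the WT response to T3 turned to 0.13 ± 0.17, again uncalled. An antisense gene model, Gm12868, shares 105 exonic bases with Slc2a1; the strand setting of the counting is not given in the sources used here, so their reads may not be separated.

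Within a library, Slc2a4 exceeded Slc2a1 per length by a geometric mean of 38.2 times in WT vehicle, 37.9 in WT T3, 33.3 in KO vehicle and 32.5 in KO T3. The ratios of single libraries ran from 16.9, in KO T3 replicate 2, to 49.4, in WT T3 replicate 3, and every group overlapped every other. Both extremes belong to libraries that lay apart.

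Hk1, the gene of hexokinase I, lies on chromosome 10 at 62268855 to 62379908, on the minus strand. It read 16.3, 11.6, 14.7, 15.4 and 12.7 CPM in WT vehicle and 17.1, 11.0, 15.2 and 15.8 CPM in KO vehicle. With T3 it ranged from 9.91 to 17.0 CPM in WT (median 13.9) and from 11.6 to 20.4 CPM in KO (median 13.5). The highest of these, KO T3 replicate 1, stood above the next KO T3 library, which read 15.0 CPM. The 4 groups overlapped, and the largest of the 4 fitted differences, KO under T3, was 0.08 ± 0.15 on the log2 scale. The interval for T3 in WT ran from -24.2 to 20.3% and that for KO under vehicle from -19.1 to 34.9%. Without the 5 libraries that lay apart the T3 change in WT was 0.18 ± 0.17 and the genotype difference under T3 was -0.13 ± 0.16, both of the opposite sign to the full fit and both uncalled. An antisense gene model, Hk1os, shares 157 exonic bases with Hk1.

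Hk2, the gene of hexokinase II, lies on chromosome 6 at 82725025 to 82774454, on the minus strand, and was called lower in KO under vehicle. The WT vehicle libraries read 446, 475, 486, 450 and 537 CPM. The KO vehicle libraries read 376, 330, 300 and 333 CPM. Every KO vehicle library lay below every WT vehicle library, a separation that 4.56% of all tested genes showed in the same direction. The fitted difference was -0.52 ± 0.13 on the log2 scale (SE), or -30.0% with a 95% interval from -42.0 to -15.7% (adjusted p = 0.0293). This call was lost with scaling by total counts alone (-0.38, adjusted p = 0.134) and with no filter on low counts (-0.49, adjusted p = 0.124). It was also lost without any 1 of 7 libraries: WT vehicle replicates 1, 3, 4 and 5 and KO vehicle replicates 2, 3 and 4. The highest adjusted p among these was 0.158, without KO vehicle replicate 3.

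Under T3 the 2 genotypes overlapped for Hk2. The WT T3 libraries ranged from 335 to 551 CPM with a median of 444, and the KO T3 libraries from 282 to 407 CPM with a median of 372. The lowest WT T3 value, that of replicate 5, lay inside the KO range. So did WT T3 replicate 3, at 406.8 CPM, just below KO T3 replicate 7 at 407.0 CPM. The difference was -0.29 ± 0.11 (adjusted p = 0.135) and was not called. Without WT T3 replicate 5 it was -0.37 and called (adjusted p = 0.0180), and without all 5 libraries that lay apart it was -0.44 ± 0.10 (adjusted p = 0.0122). T3 itself changed Hk2 by -7.2% in WT (95% interval -21.4 to 9.7%) and by 8.8% in KO (-8.5 to 29.4%), neither of them called. The difference between these responses was 0.23 ± 0.17 on the log2 scale (adjusted p = 1.00). Without the 5 libraries the WT response turned to 0.07 ± 0.10.

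Per length, Hk2 exceeded Hk1 by a geometric mean of 48.7 times in WT vehicle, 47.4 in WT T3, 32.7 in KO vehicle and 36.7 in KO T3. Single libraries ranged from 39.2 to 60.4 times in WT vehicle and from 28.3 to 42.9 times in KO vehicle, so the ranges overlapped although both means of KO lay below both means of WT. Hk1 was not called in any comparison.

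Pfkfb1 lies on chromosome X at 150588229 to 150643878, on the plus strand. It makes the bifunctional enzyme form known from liver and muscle and was called lower in KO under both treatments. The WT vehicle libraries read 56.3, 53.9, 59.0, 62.1 and 61.2 CPM. The KO vehicle libraries read 47.7, 37.7, 23.3 and 36.1 CPM. All 4 KO vehicle libraries lay below all 5 WT vehicle libraries, as did 4.56% of all tested genes. The spread within KO was the wider one. The fitted difference was -0.69 ± 0.16 on the log2 scale, or -38.1% with a 95% interval from -50.8 to -22.2% (adjusted p = 0.0162). It was not called without KO vehicle replicate 2 (adjusted p = 0.0523), 3 (-0.51, adjusted p = 0.0907) or 4 (adjusted p = 0.0671).

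Under T3, Pfkfb1 ranged from 51.9 to 65.6 CPM in WT, with a median of 55.8, and from 33.0 to 52.0 CPM in KO, with a median of 35.3. Of the 7 KO T3 libraries 6 lay below every WT T3 library, and the highest, replicate 4, lay just above the lowest WT T3 library. The genotype difference was -0.56 ± 0.13 (adjusted p = 0.0103), or -32.1% with a 95% interval from -43.7 to -18.2%. The size was the same without the 5 libraries that lay apart, -0.56 ± 0.17, but the adjusted p was then 0.0699. T3 changed Pfkfb1 by -1.3% in WT (95% interval -19.5 to 21.1%) and by 8.3% in KO (-12.4 to 34.0%), and the difference of these responses was 0.13 ± 0.20 on the log2 scale. Apex2, on the opposite strand, shares 123 exonic bases with Pfkfb1.

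The start sites of Hk2 and Pfkfb1 are shown because these 2 genes were lower together in KO. The sequences are the 250 bases before a RefSeq start on GRCm38.p6, read 5′ to 3′ on the strand of the gene. Capitals mark CACGT, the opposite-strand reading of the hypoxia response core ACGTG, in Hk2. In Pfkfb1 they mark TATAAA, the letters of a TATA box, and TGACCT, the opposite-strand reading of the nuclear receptor half-site AGGTCA. The Hk2 window lies at chr6:82774455-82774704 on the minus strand. The windows of Pfkfb1, for starts 2 and 3 of its 4 listed starts, lie at chrX:150587993-150588242 and chrX:150589666-150589915 on the plus strand. Start 2 is 14 bases from the start of the deposited gene model. The windows of starts 1 and 4, not printed, held no match of the motifs searched. Counts per gene do not show which start soleus uses.
Hk2, start 1: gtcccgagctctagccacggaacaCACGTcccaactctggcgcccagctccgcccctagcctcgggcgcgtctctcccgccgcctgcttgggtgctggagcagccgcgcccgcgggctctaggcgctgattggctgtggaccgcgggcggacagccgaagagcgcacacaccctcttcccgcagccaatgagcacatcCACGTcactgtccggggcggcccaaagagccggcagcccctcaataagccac
Pfkfb1, start 2: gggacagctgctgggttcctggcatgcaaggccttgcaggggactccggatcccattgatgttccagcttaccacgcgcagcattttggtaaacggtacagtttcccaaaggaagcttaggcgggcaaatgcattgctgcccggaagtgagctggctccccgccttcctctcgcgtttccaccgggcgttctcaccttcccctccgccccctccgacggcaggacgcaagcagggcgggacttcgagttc
Pfkfb1, start 3: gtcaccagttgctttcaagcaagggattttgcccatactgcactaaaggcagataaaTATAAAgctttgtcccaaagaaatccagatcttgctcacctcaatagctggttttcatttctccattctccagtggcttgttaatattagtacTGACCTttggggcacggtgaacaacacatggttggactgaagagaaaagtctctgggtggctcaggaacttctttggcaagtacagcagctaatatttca

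Motifs were searched on both strands of each window from 250 bases before to 50 bases after the start, and 10 such windows covered 5 of the 6 genes. ACGTG occurred in the windows of Slc2a1, Hk2 and Pfkfb3 and in 1 of the 2 of Hk1, against 19.6% of the 32851 windows of all genes. The Hk2 matches begin 226 and 52 bases before the start. None of the 4 Pfkfb1 windows held ACGTG. The half-site AGGTCA was found in the window of Pfkfb1 start 3 only, 100 bases before it, and in 16.3% of all windows. TATAAA stood in the same window 193 bases before the start, and also in that of Slc2a1, at base 29 past the start, against 13.6% of all windows. Whether either match serves as a TATA box was not tested. The GC box GGGCGG was found in the windows of Slc2a1, Hk2 (3 matches), Pfkfb1 start 2 (2 matches) and both starts of Pfkfb3, and in 35.7% of all windows. Neither the direct repeat of AGGTCA with a spacer of 4 bases nor the A/T-rich site of MEF2 type was found in the 10 windows; they occur in 0.0152% and 3.69% of all windows. These are matches of letters, and no binding was measured.

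Pfkfb3, whose enzyme form favours making fructose 2,6-bisphosphate, lies on chromosome 2 at 11471433 to 11554077, on the minus strand. The WT vehicle libraries read 8.06, 11.2, 16.8, 63.0 and 13.3 CPM and the KO vehicle libraries 12.5, 18.3, 18.2 and 9.23 CPM. WT vehicle replicate 4, at 63.0 CPM, was 5.10 times the mean of the other 4, which was 12.3 ± 3.69 CPM (SD). With T3, Pfkfb3 ranged from 11.6 to 16.3 CPM in WT (median 13.2) and from 13.1 to 25.5 CPM in KO (median 19.6). Of the 7 KO T3 libraries 5 lay above every WT T3 library, yet the groups overlapped. The genotype difference under T3 was 0.46 ± 0.33 on the log2 scale (adjusted p = 0.532).

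The fitted values of Pfkfb3 that use WT vehicle rest on that 1 library. T3 in WT gave -0.74 ± 0.36 (adjusted p = 0.296) with it and 0.13 ± 0.21 without it. KO under vehicle gave -0.63 ± 0.40 with it and 0.24 ± 0.23 without it, and the difference of responses gave 1.09 ± 0.52 and 0.20 ± 0.29. None of these was called either way. The same library held 8956 CPM of Myh4, the myosin of the fastest fibres, against 17.8 to 1813 CPM in the other 4, and 1614 CPM of Actn3, the fast fibre actinin, against 16.8 to 359 CPM. Whether these genes have a part in the Pfkfb3 value was not tested.

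**Figure D3:**
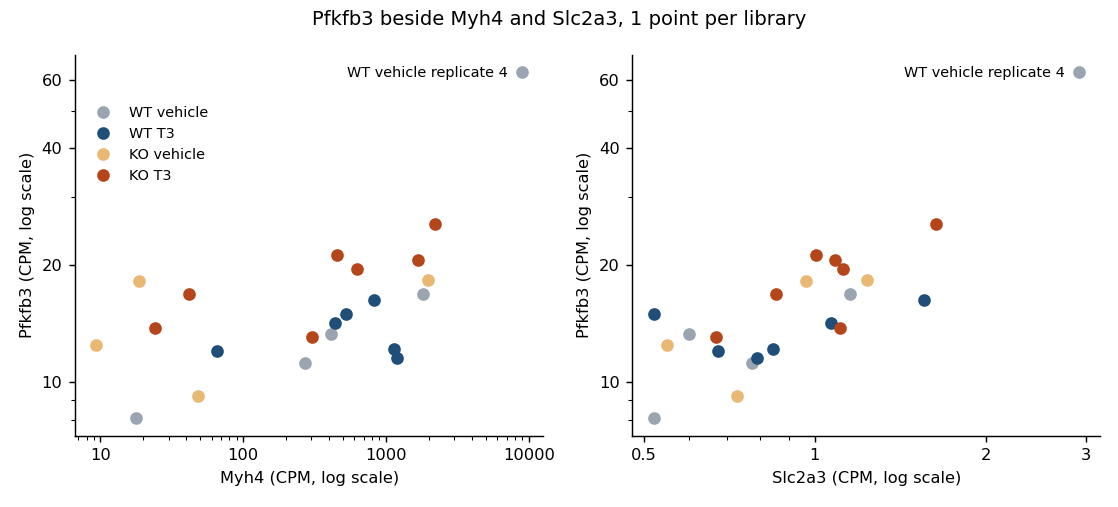
Pfkfb3 (vertical axis, CPM on a log scale) against Myh4 and Slc2a3 (horizontal axes, CPM on a log scale), with 1 point per library coloured by group. WT vehicle replicate 4, at 63.0 CPM of Pfkfb3, is the highest library for all 3 genes.

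Without the 5 T3 libraries that lay apart, the remaining T3 results of the 6 genes were as follows, none of them called. T3 in KO gave 0.08 ± 0.16 for Slc2a1, -0.03 ± 0.15 for Hk1 and 0.13 ± 0.09 for Hk2 on the log2 scale, and 0.07 ± 0.16 for Pfkfb1 and 0.30 ± 0.43 for Pfkfb3. T3 in WT gave -0.04 ± 0.17 for Pfkfb1 and -0.72 ± 0.48 for Pfkfb3. The genotype difference under T3 was 0.11 ± 0.11 for Slc2a4 and 0.41 ± 0.47 for Pfkfb3. The difference of responses was 0.22 ± 0.15 for Slc2a4, 0.05 ± 0.13 for Hk2, 0.11 ± 0.23 for Pfkfb1 and 1.01 ± 0.64 for Pfkfb3. Each of these had the sign of the full fit. For Pfkfb3, T3 in WT and the difference of responses still included WT vehicle replicate 4. Their sign is therefore no sign of stability, since without that library they were 0.13 and 0.20.

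Per length, Pfkfb1 exceeded Pfkfb3 by a geometric mean of 6.61 times in WT vehicle, 8.08 in WT T3, 4.71 in KO vehicle and 4.00 in KO T3. The WT T3 libraries ranged from 6.34 to 10.2 times and the KO T3 libraries from 2.60 to 6.22 times, without overlap. The values nearest each other, those of WT T3 replicate 5 and KO T3 replicate 3, came from libraries that lay apart. The ratio was not recomputed without the 5 libraries that lay apart. How many other gene pairs separate in this way was not computed. Under vehicle the ranges overlapped, from 1.86 to 13.1 times in WT and from 2.40 to 7.35 times in KO. Under T3 the mean of Pfkfb1 was 57.8 CPM in WT and 39.2 in KO, which was called, and that of Pfkfb3 was 13.5 in WT and 18.7 in KO, which was not.

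Fibre type markers differed between the genotypes in the same samples. Of 7 slow fibre markers, 5 were called higher in KO under vehicle and 6 under T3. Of 8 fast fibre markers, 6 and 5 were called lower. Over all tested genes the genotype gave calls, in either direction, for 3.08% under vehicle and 5.57% under T3. Summed over the list, the fast markers ran from 29440 to 59307 CPM in WT vehicle, 37919 to 51796 in WT T3, 11168 to 24433 in KO vehicle and 14515 to 28475 in KO T3. The slow markers ran from 22073 to 32948 and 17376 to 26770 CPM in the 2 WT groups and from 43499 to 50887 and 40412 to 47871 CPM in the 2 KO groups. No marker of either list was at 0 in any library. In whole muscle, fewer fibres of a type and less RNA per fibre cannot be told apart, and the part of fibre type in the values of Hk2 and Pfkfb1 was not tested by these sums.

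Within 1 genotype, over its 11 libraries of both treatments, the levels of the 6 genes were set against each sum, giving 24 relations. By Pearson's r the largest was that of Pfkfb1 with the fast markers in KO (Pearson r = 0.76, permutation p = 0.00690, adjusted p = 0.166; Spearman rho = 0.62, permutation p = 0.0488, adjusted p = 0.554). Within treatments r was 0.745, and without the 2 libraries farthest from the median of the fast sum it was 0.40. Leaving out such libraries narrows the range of the sum, which by itself can lower r. The fall therefore cannot tell whether the relation rests on them. In WT the same pair gave r = 0.07 (permutation p = 0.831, adjusted p = 0.867) and rho = 0.01 (permutation p = 0.990). Pfkfb3 with the fast markers in WT gave r = 0.67 (permutation p = 0.0153, adjusted p = 0.184) and rho = 0.64 (permutation p = 0.0402, adjusted p = 0.554), the largest rho of the 24; within treatments r was 0.87, and without the 2 libraries farthest from the median it was 0.44. Pfkfb1 with the slow markers gave r = -0.56 in WT (permutation p = 0.0741, -0.83 within treatments, -0.21 without the 2 farthest libraries) and -0.56 in KO (permutation p = 0.0721, -0.54 within treatments, -0.51 without the 2 farthest). Hk2 gave r = 0.41 with the fast markers in KO (permutation p = 0.217) and -0.27 in WT (permutation p = 0.426). No relation passed the adjustment over the 24.

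**Figure D4:**
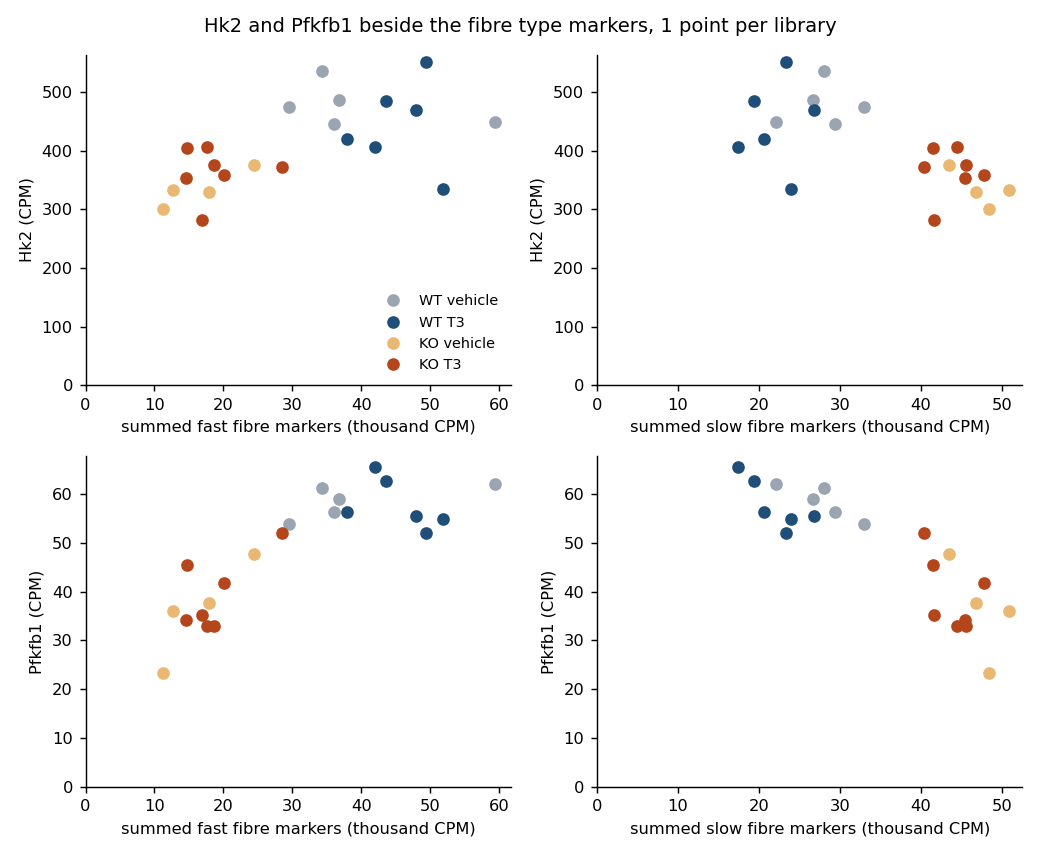
Hk2 (top) and Pfkfb1 (bottom), in CPM on the vertical axes, against the summed CPM of the fast and slow fibre markers (axis units of 1000 CPM), with 1 point per library coloured by group. The genotypes separate on both marker sums, with fast sums of 29440 CPM or more in WT and 28475 CPM or less in KO.

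The genes whose log2 CPM was most like that of a member over the 22 libraries were taken by Pearson's r, as a description across libraries that share groups. For Hk2 they were Myo19, a mitochondrial myosin (r = 0.89), Ank, a membrane transporter gene (0.88), and Acot11, an acyl-CoA thioesterase (0.86). For Pfkfb1 they were Slc25a12, a mitochondrial aspartate-glutamate carrier (0.94), Mrgprh (0.93) and Akr1b10 (0.92). For Pfkfb3 they were Slc2a3, the gene of the transporter GLUT3 (0.84), Actn3 (0.77) and the transcription factor gene Maf (0.77), and without WT vehicle replicate 4 these fell to 0.71, 0.69 and 0.67. Slc2a4 was most like Slc25a29 (0.84), Slc4a2 (0.84) and Gpaa1 (0.82), which fell to 0.75, 0.75 and 0.76 without KO T3 replicate 2. Slc2a1 was most like Prodh (0.73), B3galt4 (0.70) and Glul (0.70), which fell to 0.65, 0.54 and 0.60 without WT T3 replicate 3. Hk1 was most like Ttll12 (0.76), Ankrd13b (0.71) and Nucb1 (0.71), the last at 0.65 without WT T3 replicate 1. For Hk2 and Pfkfb1 the lowest values without 1 library were 0.84 and 0.89. Hk2 and Pfkfb1 shared none of these genes, which says little for lists of 3 out of 15082 tested genes. The lists left out the members themselves, and Hk2 and Pfkfb1 correlated with each other at r = 0.71 over the 22 libraries. These libraries pool both genotypes, and both genes were called lower in KO under vehicle, so a positive r is no separate result.

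Around the 6 genes, 72 genes of the same pathway were listed in 7 groups, and 67 of them were tested. Among the 67, T3 raised 1 and lowered 1 in WT and raised 3 in KO, while KO lowered 5 under vehicle and raised 1 and lowered 7 under T3. Over all tested genes, T3 gave calls for 3.31% in WT and 2.72% in KO. The genotype gave calls for 3.08% under vehicle (1.52% lower in KO) and 5.57% under T3 (2.34% lower in KO). No listed gene was called for the difference of responses. Of the other sugar transporters, 6 of 9 were tested and none was called in any comparison, and Hk3, the 1 other hexokinase gene of the list that was tested, was not called either. In the 5 comparisons the median log2 fold change of the 6 tested transporters lay between -0.05 and 0.10.

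Of the 7 tested genes of the phosphofructokinase step beside Pfkfb1 and Pfkfb3, 2 were called lower in KO under vehicle and 3 under T3. Over all tested genes the shares called lower were 1.52% and 2.34%. The medians of the 7 genes were -0.22 and -0.33 on the log2 scale against -0.02 and -0.00063 over all genes. Pfkfb4, a further bifunctional enzyme gene, stood at 20.3 ± 5.27 CPM (SD, n = 5) in WT vehicle and 8.61 ± 2.08 (n = 4) in KO vehicle, a log2 difference of -1.24 ± 0.24 (SE, adjusted p = 0.00547). T3 raised Pfkfb4 in KO to 15.6 ± 4.90 CPM (0.86 ± 0.23, adjusted p = 0.0448), a call lost without any 1 of 15 libraries (adjusted p = 0.182 without KO vehicle replicate 1). Under T3 its genotype difference was -0.71 ± 0.19 (adjusted p = 0.0307), which was not called without WT T3 replicate 2 or 4 or KO T3 replicate 1 or 5 (adjusted p of 0.0729 at most). Tigar, whose product breaks down fructose 2,6-bisphosphate, was lower in KO under vehicle (-0.48 ± 0.12, adjusted p = 0.0277) and T3 (-0.44 ± 0.10, adjusted p = 0.00778). The first of these calls was lost without WT vehicle replicate 3 or 4 or KO vehicle replicate 2, 3 or 4 (adjusted p of 0.149 at most). Pfkfb2, the form best known from heart, passed as lower in KO with T3 (-0.60 ± 0.15, adjusted p = 0.0173), from 11.0 ± 2.82 to 7.22 ± 0.84 CPM. Without the 5 libraries that lay apart, Pfkfb2 under T3 was -0.62 ± 0.19 with an adjusted p of 0.0717, and without WT T3 replicate 4 its adjusted p was 0.0544.

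Among 14 genes of GLUT4 storage and traffic, 2 were called lower in KO under vehicle, and 3 lower and 1 higher under T3, while Slc2a4 itself was not called. Over all tested genes 1.52% were called lower in KO under vehicle and 2.34% under T3. Tbc1d1, a Rab GTPase-activating protein that restrains GLUT4 vesicles, fell from 45.5 ± 20.9 CPM in WT vehicle to 17.9 ± 4.23 in KO vehicle (-1.35 ± 0.25, adjusted p = 0.00304). Under T3 it stood at 59.4 ± 8.78 CPM in WT and 21.7 ± 2.09 in KO (-1.45 ± 0.20, adjusted p = 5.8e-05). All KO libraries lay below all WT libraries for Tbc1d1 under both treatments, as did 4.56% of all tested genes under vehicle and 0.869% under T3. Its relative Tbc1d4, named after its values were seen, went the other way under T3, with 84.5 ± 22.4 CPM in WT and 136 ± 19.4 in KO (0.69 ± 0.15, adjusted p = 0.00538). The fast and slow marker sums given above also differed between the genotypes in these libraries, and their part in Tbc1d1 and Tbc1d4 was not tested. Sort1, a sorting receptor of the GLUT4 storage vesicle, was lower in KO under vehicle (-0.91 ± 0.17, adjusted p = 0.00306) and under T3 (-0.50 ± 0.14, adjusted p = 0.0266). The second call was lost without WT T3 replicate 1 or KO T3 replicate 5, 6 or 7 (adjusted p of 0.0626 at most) and without the 5 libraries that lay apart (-0.54 ± 0.16, adjusted p = 0.0582). T3 raised Sort1 in KO from 13.2 ± 2.22 to 23.9 ± 2.66 CPM (0.85 ± 0.16, adjusted p = 0.00326), and every KO T3 library lay above every KO vehicle library, as for 2.75% of all tested genes. Rab13 was lower in KO under T3 (-1.16 ± 0.23, adjusted p = 0.00231), and by 0.78 ± 0.21 without the 5 libraries that lay apart.

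In the other lists few genes were called, and several of these calls were lost without 1 library. Of 15 genes of insulin and AMPK signalling, Prkab2, a beta subunit of AMPK, fell with T3 in WT from 169 ± 33.5 to 109 ± 25.7 CPM (-0.63 ± 0.15, adjusted p = 0.0180), and no other was called; this one was lost without WT vehicle replicate 4 (-0.50, adjusted p = 0.0740) or WT T3 replicate 4 (-0.56, adjusted p = 0.0562). A further list of 14 genes held transcription regulators of the members together with Txnip and Arrdc4. Of these 14, Foxo1 rose with T3 in WT (0.70 ± 0.16, adjusted p = 0.0151), a call lost without WT vehicle replicate 1 (0.62, adjusted p = 0.0667). Mlxipl, the gene of the glucose-sensing factor ChREBP, was lower in KO under vehicle (-0.70 ± 0.15, adjusted p = 0.0100) and rose with T3 in KO from 42.6 ± 6.52 to 64.3 ± 12.2 CPM (0.59 ± 0.14, adjusted p = 0.0238). Without KO vehicle replicate 4 neither was called (-0.61, adjusted p = 0.0647, and 0.50, adjusted p = 0.131), and the call of the rise was also lost without KO vehicle replicate 2 (0.56) or 3 (0.54). Of 10 genes of lower glycolysis, Eno3, the muscle enolase, passed as lower in KO with T3 (-1.06 ± 0.26, adjusted p = 0.0164), and without the 5 libraries that lay apart it was -0.69 ± 0.24 (adjusted p = 0.126). Eno3 is more abundant in fast fibres, and the fast marker sums given above differed in the same libraries; their part in it was not tested. The T3 calls of the listed genes not mentioned above in this respect held without the 5 libraries that lay apart: Prkab2 (-0.82 ± 0.14) and Foxo1 (0.92 ± 0.15) in WT, Pfkfb4 (0.84 ± 0.21), Sort1 (0.76 ± 0.15) and Mlxipl (0.62 ± 0.14) in KO, and Pfkfb4 (-0.83 ± 0.21), Tigar (-0.44 ± 0.12), Tbc1d1 (-1.54 ± 0.26), Rab13 (-0.78 ± 0.21) and Tbc1d4 (0.55 ± 0.15) between the genotypes.

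**Figure D5:**
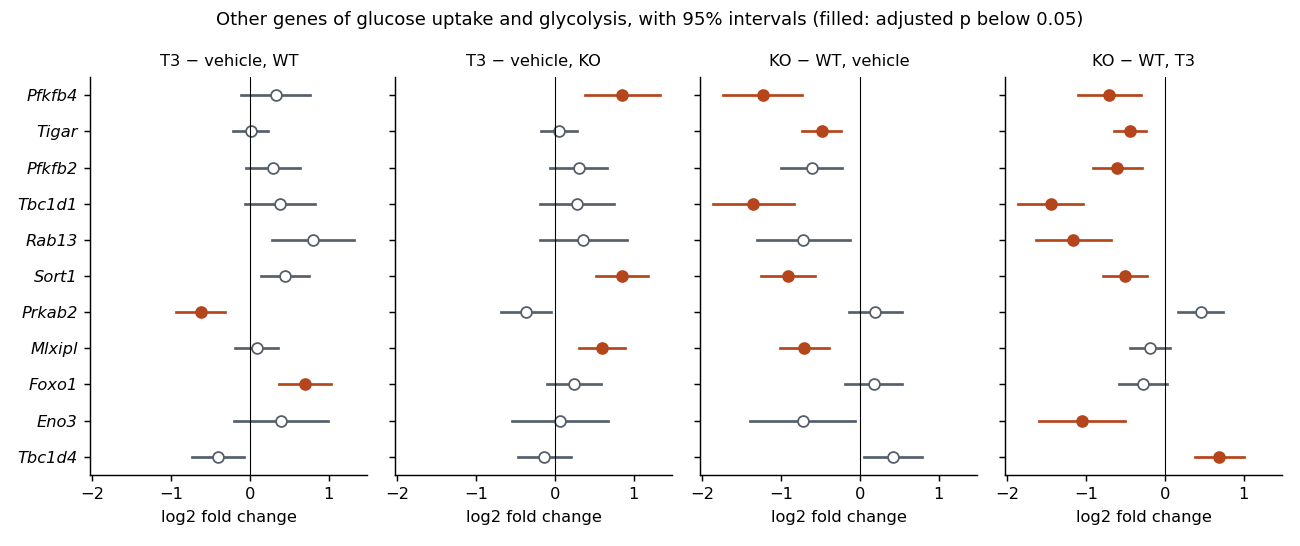
Fitted log2 fold change (horizontal axis) with its 95% interval for the 11 named genes of the surrounding pathway in the 4 comparisons. Filled points passed an adjusted p of 0.05; Tbc1d1 was lower in KO by 1.35 under vehicle and 1.45 under T3.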

How the data were processed

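Poly-A RNA of mouse soleus was sequenced in 22 libraries. The deposited table holds raw read counts per gene, which the authors made with STAR 2.7.3a and featureCounts 1.6.4 on mm10, per the submitters' processing notes, which also name edgeR 3.26.8. Not given in the sources used here are the strand setting and the release of the annotation. The gene length in the table, also deposited by the authors and in base pairs, was used for RPKM, and RPKM and CPM were computed here with TMM-scaled library sizes. All 22 columns matched a labelled sample.

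Samples were grouped by the genotype and treatment in their labels, and replicate numbers follow the order of deposit and pair nothing. Low genes were filtered out with filterByExpr (edgeR 4.0.16, R 4.3.3, minimum count 10), which left 15082 genes and at least 99.9% of the counts of each library. The 4 groups were fitted together, contrasts were tested with edgeR's quasi-likelihood test, and p-values were adjusted by Benjamini and Hochberg over all genes tested. The steps were tested on simulated data. Errors of log2 fold changes are SE, those of levels SD. No 2 libraries held identical counts. Relations with marker sums were tested with 100000 permutations, two-sided (scipy 1.17.1).

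The 6 genes and all lists were chosen with earlier results of these data known. Beside the 6, the text names up to 3 called genes of each list with the smallest adjusted p, Thra, and the 3 named genes most correlated with each of the 6. The genes reported are not the whole family; some are not reported here. Each log2 fold change and each count of calls was also computed with total count, upper quartile or RLE scaling, without a filter, with 1 CPM in 4 libraries, DESeq2 1.42.0, limma 3.58.1 voom with and without quality weights, fits on the 2 groups compared and leaving out each library. Ratios between genes were recomputed only without each library, and relations with marker sums only without 2 libraries and within treatments. A fit without 5 T3 libraries and an offset for GC content and length were chosen after seeing the data. Promoter sequences are from RefSeq (GRCm38.p6), in which 5 of the 6 genes matched. Figures used matplotlib 3.10.9 (Python 3.11.15).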

Additional observations from a re-analysis of the deposited data

Results flagged for a closer look

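The values of the 6 genes were screened in each of the 4 groups for a library far from the others, by the gap between an extreme library and its neighbour as a share of the range of the group. Of the 24 sets of values, 2 stood out, and chance gives about 1 in 20. Pfkfb3 read 62.96 CPM in WT vehicle replicate 4, while the next library of that group read 16.8 CPM. Hk1 read 20.37 CPM in KO T3 replicate 1, against 15.0 CPM in the next KO T3 library. Slc2a1 was also highest of its group in KO T3 replicate 1, at 18.4 CPM, with KO T3 replicate 2 close to it at 18.0 CPM.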

How the results depend on the processing

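The lower level of Hk2 and Pfkfb1 in KO kept its direction under every alternative run, from -0.58 to -0.38 for Hk2 and -0.85 to -0.51 for Pfkfb1 under vehicle, and from -0.44 to -0.13 and -0.66 to -0.41 under T3; the calls lost are given beside the results. Under T3, Hk2 was called with quality weights (-0.31, adjusted p = 0.0205), with the offset for GC content and length (-0.32, adjusted p = 0.0259), without the 5 T3 libraries that lay apart and without WT T3 replicate 5. So the number of the 6 genes called in KO under vehicle was 1 with total count scaling and with no filter and 0 to 2 without 1 library, and in KO under T3 it was 2 with quality weights and with the offset and 1 to 2 without 1 library. Total count scaling moved the median of all genes by 0.15 (KO under vehicle) and 0.16 (KO under T3) on the log2 scale. It moved the share of calls that were higher in KO from 50.8% to 75.7% under vehicle and from 58.0% to 85.9% under T3, and the share higher with T3 in KO from 62.0% to 76.6%.

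Of the other named genes, total count scaling lost the calls of Pfkfb4 for T3 in KO, Tigar under vehicle, and Pfkfb4, Tigar, Pfkfb2 and Sort1 under T3. The fit on only the groups compared lost Prkab2, Foxo1 and Thra with T3 in WT and Pfkfb4 with T3 in KO and between genotypes under T3. Tigar under vehicle was lost with no filter and Pfkfb4 for T3 in KO with voom. All kept their direction.

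Signs turned only for uncalled values of the 6 genes. T3 in WT became 0.0033 (upper quartile), 0.018 (total counts) and 0.014 (quality weights) for Pfkfb1; 0.13 (without the 5 libraries) and 0.015 (offset) for Slc2a1; 0.18 and 0.049 for Hk1 in the same settings; and 0.072 for Hk2 without the 5. T3 in KO became 0.0047 for Hk1 and KO under vehicle 0.0011 for Slc2a4 with total counts. KO under T3 became -0.13 for Hk1 without the 5. The difference of responses became -0.0033 (upper quartile), -0.21 (without the 5) and -0.070 (offset) for Hk1 and -0.048 for Slc2a1 without the 5. Without 1 library, T3 in WT ranged from -0.12 to 0.065 for Slc2a1, -0.14 to 0.0091 for Hk1, -0.057 to 0.022 for Pfkfb1 and -0.93 to 0.13 for Pfkfb3. T3 in KO ranged from -0.19 to 0.032 for Hk1 and -0.077 to 0.28 for Pfkfb1. KO under vehicle ranged from -0.014 to 0.21 for Hk1 and -0.82 to 0.24 for Pfkfb3, and KO under T3 from -0.021 to 0.14 for Hk1 and -0.0081 to 0.13 for Slc2a4. The difference of responses ranged from -0.13 to 0.099 for Hk1 and -0.061 to 0.29 for Pfkfb1. The cause of these turns was not tested.

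The number of all genes called was, for T3 in WT, 832 with DESeq2, 767 with quality weights, 291 with only the groups compared, 800 with the offset and 284 to 563 without 1 library. For T3 in KO it was 660 with DESeq2, 1472 with quality weights, 682 without the 5 libraries, 786 with the offset and 164 to 696 without 1 library. For KO under vehicle it was 728 with DESeq2, 1971 with quality weights, 709 with only the groups compared, 1032 without the 5, 704 with the offset and 212 to 788 without 1 library. For KO under T3 it was 1459 with total counts, 1478 with quality weights, 539 with only the groups compared, 1412 with the offset and 663 to 1150 without 1 library. For the difference of responses it was 2 with no filter, 3 with DESeq2 and 2 with quality weights. It was 0 without the 5 (edgeR), 2 with the offset and 0 to 2 without 1 library. At an unadjusted p below 0.05 the full fit held 371 of 15082 genes, a share below the 0.05 that chance alone gives. A fit on only 2 groups cannot give the difference of responses. Pfkfb3 had from 175 to 2522 counts per library and Slc2a1 from 187 to 1197; each SE covers counting error and the spread between libraries together. No paired analysis was possible because the labels give no numbers or pairing that the groups share.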

Other observations

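The markers of other cell types that soleus can hold were followed over the same libraries. The called genes are named here after their values were seen. Over all tested genes, calls stood at 3.31% for T3 in WT, 3.08% for KO under vehicle and 5.57% for KO under T3. Of 7 endothelial markers, 2 (Kdr and Emcn) were called lower in KO under T3, where their summed level ran from 274 to 431 CPM against 308 to 475 CPM in WT T3. Slc2a1, which endothelial cells also use, was not called in that comparison. Of 6 Schwann cell markers, 2 (Mbp and Sox10) were called lower with T3 in WT, and their sum ran from 46.4 to 312 CPM in WT vehicle and from 31.7 to 50.5 CPM in WT T3. The 312 CPM is that of WT vehicle replicate 3 alone, and the next library of the group read 81.3 CPM. Of 5 erythroid markers, 1 (Hbb-bt) was called higher in KO under vehicle, where the sum was 982 CPM in replicate 3 and 33.4 to 96.2 CPM in the other libraries. The adipocyte, macrophage, neutrophil, fibroblast, and smooth muscle and pericyte lists held no called gene in any comparison. The neutrophil markers summed to 9.46 CPM in KO T3 replicate 2, 1 of the 5 libraries that lay apart, and to at most 1.40 CPM in the others. Ly6g, a neutrophil marker, was at 0 in 21 libraries. The part of these cells in the values of the 6 genes was not tested.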
